A study of Homo sapiens with 6 samples.

Results

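Expression of the cyclin-dependent kinase (CDK) inhibitor genes and the GADD45 genes was followed in LX-2 cells given recombinant human BMP9. Members were every probe set that the platform annotation assigns to exactly 1 of 10 named growth arrest genes. This gave 20 probe sets of 9 genes, out of 49293 probe sets other than array controls: 7 of the CIP/KIP genes CDKN1A, CDKN1B and CDKN1C, 7 of the INK4 genes CDKN2A, CDKN2B and CDKN2D, and 6 of GADD45A, GADD45B and GADD45G. No probe set was paired with CDKN2C alone, and that gene was not analysed here. LX-2 is an immortalised human line of hepatic stellate cells, the vitamin A-storing liver cells that become matrix-producing myofibroblasts in fibrosis. All cells were grown with 10% fetal bovine serum and then kept for 12 h without it. The control group (3 samples) then received 0 ng/ml BMP9 and the BMP9 group (3 samples) 50 ng/ml for 24 h, and each sample was measured on 1 Affymetrix 3′ expression array. All samples come from a single cell line. The labels call the samples biological replicates without saying whether they were separate cultures, so the p-values speak only of the scatter among these 6 arrays, which may be technical.

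CDK inhibitors hold cells in the first gap phase of the cycle. CIP/KIP proteins bind cyclin-CDK complexes, above all those of CDK2, whereas INK4 proteins bind CDK4 and CDK6 and keep the D-type cyclins from activating them. GADD45 proteins are small acidic proteins induced by growth arrest and DNA damage. They bind PCNA and the CDK1-cyclin B complex, and they activate the kinase MAP3K4 upstream of the stress kinases p38 and JNK. CDKN1A and GADD45A are classical p53 targets, and CDKN1A, CDKN2B and GADD45B are known to respond to ligands of the TGF-beta family in other cells. BMP9 itself signals through SMAD1/5/9, and it induces ID proteins, which sequester the E proteins that can activate CDKN1A through E-box elements.

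GADD45A was the only one of the 9 measured genes with a probe set past the threshold, and it fell with BMP9. Its single probe set stood at 5.88, 5.71 and 5.74 on the log2 scale in control replicates 1 to 3, and at 5.38, 5.07 and 5.04 in BMP9 replicates 1 to 3. The groups did not overlap, and BMP9 replicate 1 lay closest to the controls. The difference, BMP9 minus control, was -0.62 on the log2 scale (SE 0.10, 95% interval -0.84 to -0.39, limma adjusted p = 0.0313 over all probe sets), a 1.53-fold lower signal. In the same fit 202 probe sets passed at an adjusted p under 0.05, which is 0.41% of those tested: 66 were higher and 136 lower with BMP9. Among the members 1 of 20 was lower, against 0.276% of all probe sets, and 0 were higher, against 0.134%. An unadjusted p under 0.05 was found in 5 members, or 25%, against 11.4% of all probe sets. Both CDKN1C probe sets of a shared source sequence, described below, are among these 5, which are therefore not all independent. The members were also chosen with earlier results of these data known.

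The GADD45A call was a narrow one. It was kept without BMP9 replicate 1 (limma adjusted p = 0.0177), and it was lost without control replicate 1 (0.152), control replicate 2 (0.083), control replicate 3 (0.0974), BMP9 replicate 2 (0.149) or BMP9 replicate 3 (0.168). The difference lay between -0.72 and -0.55 in these 6 fits. Spiked-in controls also differed between the groups: the mean of 24 poly-A control sets lay between 6.09 and 6.22 in control and between 5.39 and 5.83 with BMP9. Scaling the arrays to these sets moved the median difference of all probe sets from 0.0078 to 0.54 and split the calls into 45775 higher and 30 lower, and scaling to the 18 hybridisation control sets moved it to 0.22 and gave 10445 higher and 143 lower. GADD45A differed by -0.40 with hybridisation scaling, which passed (limma adjusted p = 0.0243), and by -0.083 with poly-A scaling, which did not (limma adjusted p = 0.626). What share the spiked-in controls have in these differences was not tested, and all further values are on the deposited scale.

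**Figure D1:**
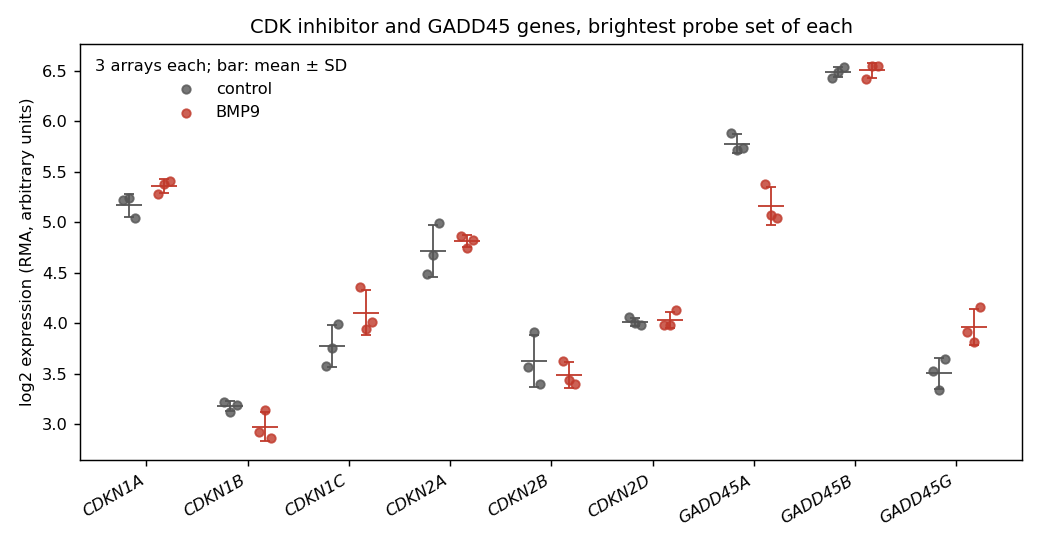
Log2 expression (RMA, y axis) of the brightest probe set of each of the 9 measured genes (x axis) on the 3 control and 3 BMP9 arrays; points are arrays, bars are means and error bars SD. The GADD45A arrays separate downwards with BMP9 (5.04 to 5.38 against 5.71 to 5.88), while those of GADD45B overlap (6.42 to 6.55 against 6.43 to 6.53).

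GADD45B, which is induced by inflammatory signals and by TGF-beta in other cells, was the best covered of the 3 GADD45 genes, with 4 probe sets. The brightest stood at 6.43, 6.49 and 6.53 in control and at 6.42, 6.54 and 6.55 with BMP9, with overlapping groups. Its difference was 0.021 (95% interval -0.15 to 0.20, limma adjusted p = 0.947). The next brightest, whose name carries no mark of shared probes, differed by 0.035 (95% interval -0.15 to 0.22). The remaining ones differed by -0.039 and, in the dimmest (control 2.60 ± 0.17, BMP9 2.81 ± 0.075, SD, n = 3), by 0.21 without overlap between the groups (limma adjusted p = 0.448). Without control replicate 3 this last difference was 0.11. For the 3 brighter probe sets the intervals thus reached 0.22 in either direction at most, short of the size of the GADD45A difference.

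The brightest probe sets of both genes were also set against each other within arrays. The GADD45A value minus the GADD45B value was -0.55, -0.77 and -0.80 on the control arrays and -1.05, -1.48 and -1.51 on the BMP9 arrays. Its shift of -0.64 is made up almost wholly of the GADD45A difference already given. The exact two-sided permutation test over the 6 arrays gave p = 0.1, the smallest value that 3 against 3 arrays allow. With the mean of each gene's probe sets the shift was -0.67 (exact p = 0.1). A scaling shared by all probe sets of an array does not alter this quantity.

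GADD45G, the family member best known from differentiation and development, showed the opposite sign from GADD45A. It stood at 3.52, 3.34 and 3.64 in control and at 3.91, 3.81 and 4.16 with BMP9, again without overlap. The difference of 0.46 (SE 0.11, 95% interval 0.22 to 0.70) missed the threshold in the fit of every probe set (limma adjusted p = 0.140) and with 1 probe set per gene (limma adjusted p = 0.109). It passed only with the arrays scaled to the hybridisation or poly-A controls, where 21.2% and 92.9% of all probe sets were called higher. It ranked 580th by p among the 49293 probe sets, and GADD45A ranked 166th. Without detection calls, neither GADD45G nor GADD45A is known to lie above background. The array carries 23 background control sets named by their GC count, and their means ran from 1.67 to 10.0, with a median of 2.39, so the background of a probe set depends on its base composition. Those with a GC count of 19 and 20 stood at 5.10 and 5.23, beside a GADD45A mean of 5.16 with BMP9. These were the sets nearest that mean, while those with a GC count of 10 and 14 stood at 1.85 and 2.39. By its mean over the 6 arrays, GADD45A was brighter than 83.8% of all probe sets, which does not give its own background. The probe sequences were not used here.

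**Figure D2:**
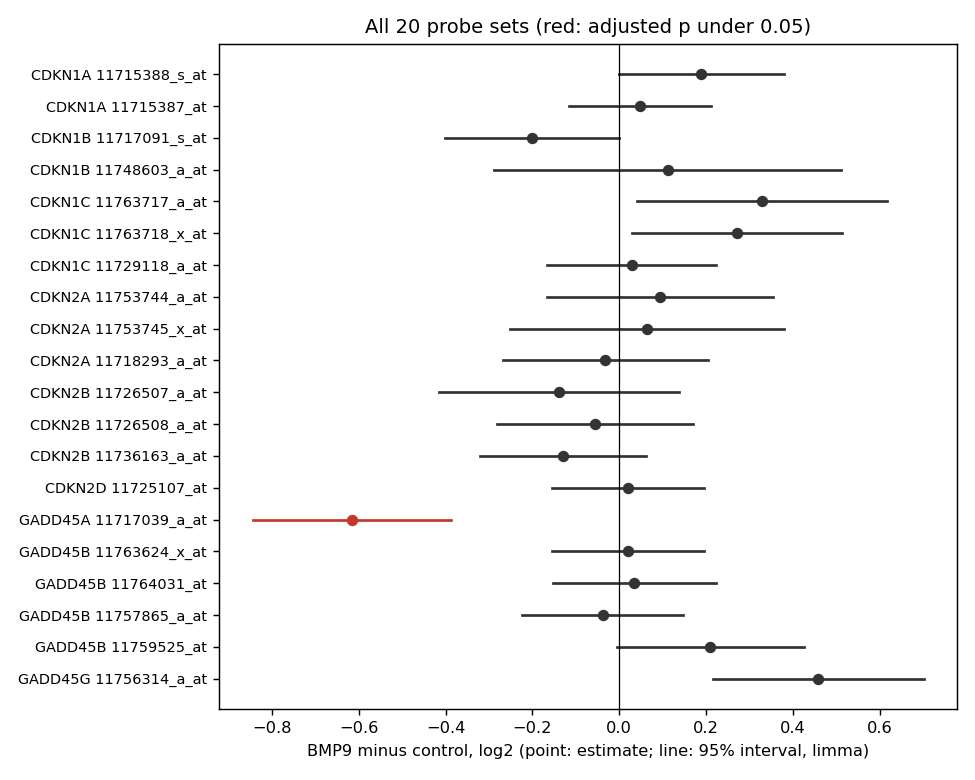
Difference BMP9 minus control on the log2 scale (x axis) for all 20 member probe sets (y axis); points are limma estimates and lines 95% intervals, red where the adjusted p is under 0.05. Only the interval of GADD45A lies wholly below -0.2, and that of GADD45G wholly above 0.2.

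The CIP/KIP genes showed differences of mixed sign, none past the threshold. CDKN1A encodes p21, the inhibitor through which p53 arrests the cycle. Its brighter probe set stood at 5.22, 5.24 and 5.04 in control and at 5.28, 5.38 and 5.41 with BMP9. The groups did not overlap, but the gap between the highest control and the lowest BMP9 array was small beside the spread, and the difference was 0.19 (SE 0.086, 95% interval -0.0011 to 0.38, limma adjusted p = 0.442). Without control replicate 3 it was 0.12. The other CDKN1A probe set was dim (control 3.03 ± 0.033, BMP9 3.08 ± 0.022, SD, n = 3) and differed by 0.048.

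CDKN1C encodes p57, an imprinted CDK inhibitor that acts in development. Its brightest probe set stood at 3.57, 3.75 and 4.0 in control and at 4.36, 3.94 and 4.01 with BMP9. These groups overlapped, and the difference was 0.33 (SE 0.13, 95% interval 0.041 to 0.62, limma adjusted p = 0.379). A second probe set, which the annotation ties to the same source sequence and which is therefore no independent measurement, gave control 2.46 ± 0.13 and BMP9 2.73 ± 0.19 (SD, n = 3) and differed by 0.27 without overlap (limma adjusted p = 0.387). BMP9 replicate 1 was the highest array in both, and without it the differences were 0.20 and 0.16. The remaining CDKN1C probe set, from another source sequence, differed by 0.028.

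CDKN1B encodes p27, whose level is set largely by protein degradation. Its brighter probe set was still dim, at 3.22, 3.13 and 3.19 in control and 2.92, 3.14 and 2.87 with BMP9. BMP9 replicate 2 lay within the control range, and the difference was -0.20 (95% interval -0.40 to -0.0011, limma adjusted p = 0.436), a sign that turned positive with both scalings to control sets. The other CDKN1B probe set differed by 0.11, with BMP9 arrays from 1.69 to 2.58, and it had the largest SE of all members (0.18).

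No INK4 probe set differed by more than 0.14 in size. CDKN2A encodes p16, a marker of senescence, and from another reading frame ARF, which protects p53 from MDM2. Its brightest probe set stood at 4.49, 4.67 and 5.0 in control and at 4.86, 4.75 and 4.83 with BMP9. The BMP9 arrays lay inside the control range, and the difference was 0.094 (95% interval -0.17 to 0.36, limma adjusted p = 0.809). A probe set tied to the same source sequence differed by 0.063, with control replicate 3 again the highest array, and another differed by -0.032, which turned positive with both scalings to control sets.

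CDKN2B encodes p15, the INK4 protein that TGF-beta induces in epithelial cells. Its brightest probe set stood at 3.57, 3.91 and 3.40 in control and at 3.63, 3.44 and 3.40 with BMP9, so that only control replicate 2 stood out. The difference was -0.14 (95% interval -0.41 to 0.14, limma adjusted p = 0.720), and it was 0.0026 without control replicate 2. The other CDKN2B probe sets lay near 2 and differed by -0.056 and -0.13, and all 3 differences turned positive with both scalings. CDKN2D, which encodes p19, had the narrowest control spread of the INK4 genes' brightest probe sets, at 4.01 ± 0.041 against 4.03 ± 0.080 with BMP9 (SD, n = 3), a difference of 0.020 (95% interval -0.16 to 0.20, limma adjusted p = 0.949).

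Over the 20 member probe sets the median difference was 0.032, beside 0.0078 over all probe sets, and the median absolute difference was 0.10, beside 0.084. Differences were positive in 13 and negative in 7, and 14 were smaller than 0.2 in size. Groups did not overlap in 5 probe sets, or 25% of the members, against 17.3% of all probe sets. GADD45A was the 1 lower without overlap (8.17% of all probe sets were), and GADD45G, 1 probe set of CDKN1A, 1 of CDKN1C and 1 of GADD45B were the 4 higher (9.09%). The smallest absolute difference that passed anywhere in the table was 0.41, and apart from GADD45A and GADD45G every member stayed below that. Of the members, 6 had a mean log2 value under 3 and 4 a mean of at least 5, the latter being GADD45A, 2 probe sets of GADD45B and 1 of CDKN1A.

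**Figure D3:**
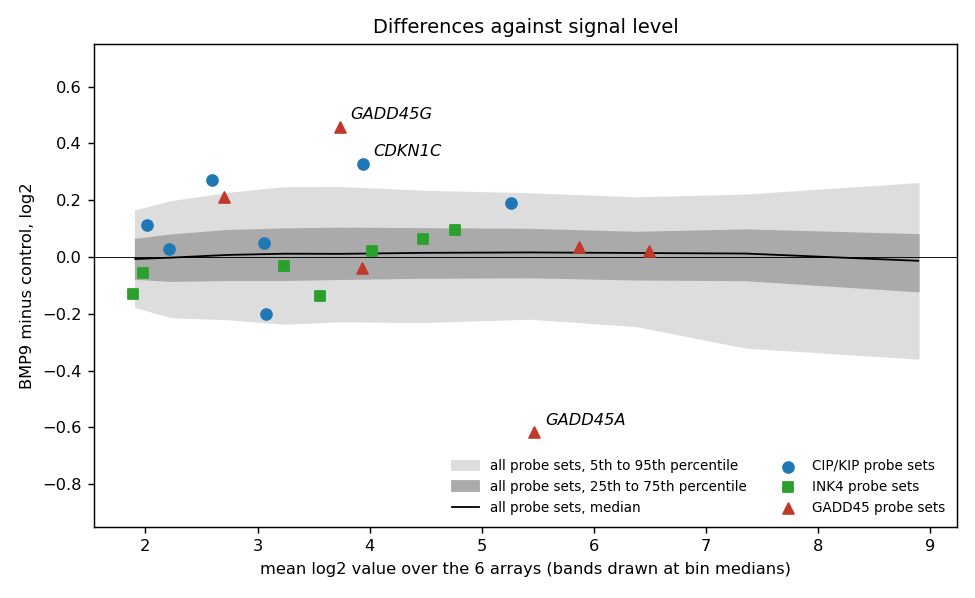
Difference BMP9 minus control (log2, y axis) against the mean log2 value over the 6 arrays (x axis) for the member probe sets, by family, over bands that hold the central 50% and 90% of all probe sets at each level. GADD45A (-0.62), GADD45G (0.46) and both CDKN1C probe sets of the same source sequence (0.33 and 0.27) lie outside the wider band, and the INK4 probe sets lie inside it.

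Promoters are shown for 3 members: GADD45B and GADD45G, the measured genes whose upstream windows held both motifs searched, and CDKN1A, the inhibitor gene known for activation by E proteins. The sequences are the 250 bases before the transcription start in RefSeq (GRCh38.p14, plus strand in each case), at chr19:2475877-2476126 for GADD45B, chr9:89604762-89605011 for GADD45G and chr6:36678464-36678713 for CDKN1A. The RefSeq table held entries for 8 of the 10 genes and none for GADD45A and CDKN1C. Capitals mark GGCGCC, a GC-rich element bound by SMAD1/5, and CANNTG, the E-box. Both read the same on either strand, and no match of one overlapped a match of the other.
GADD45B: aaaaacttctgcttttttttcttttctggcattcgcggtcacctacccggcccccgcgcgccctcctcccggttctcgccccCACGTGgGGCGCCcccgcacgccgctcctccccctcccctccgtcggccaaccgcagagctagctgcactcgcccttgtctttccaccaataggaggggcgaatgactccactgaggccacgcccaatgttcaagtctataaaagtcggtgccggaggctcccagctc
GADD45G: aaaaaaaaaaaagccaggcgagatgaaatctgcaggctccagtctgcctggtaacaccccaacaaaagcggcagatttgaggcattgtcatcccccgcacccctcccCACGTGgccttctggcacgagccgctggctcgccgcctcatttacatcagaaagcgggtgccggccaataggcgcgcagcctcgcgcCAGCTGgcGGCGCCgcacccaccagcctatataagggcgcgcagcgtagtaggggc
CDKN1A: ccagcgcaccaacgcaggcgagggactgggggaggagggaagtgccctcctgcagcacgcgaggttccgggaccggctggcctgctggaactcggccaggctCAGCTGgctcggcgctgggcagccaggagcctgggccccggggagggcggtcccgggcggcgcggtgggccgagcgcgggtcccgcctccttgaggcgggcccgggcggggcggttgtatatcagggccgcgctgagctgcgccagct
GGCGCC began 161 bases before the start in GADD45B and 48 bases before it in GADD45G, and it occurred in 16.4% of all 35116 promoter windows. CANNTG began at 168 bases in GADD45B, at 143 and 56 bases in GADD45G and at 148 bases in CDKN1A, and it occurred in 61.8% of all windows. Of the other genes with an entry, CDKN2B, CDKN2C and CDKN2D also held CANNTG and CDKN2C also GGCGCC, while CDKN1B and CDKN2A held neither. The E-box is CACGTG in GADD45B and, at the more distant position, in GADD45G. The windows of GADD45B and GADD45G each held both elements, and no probe set of either gene passed the threshold. Any bearing of these elements on the differences was not tested. These matches describe the letters in the windows only.

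The genes whose arrays followed GADD45A most closely were sought among 178 genes with a mean log2 value of at least 6 and an SD of at least 0.2 over the 6 arrays. By Pearson's r over the 6 arrays, which share the group difference, these were VEZF1, a zinc finger transcription factor gene (r = 0.997), LPAR4, a lysophosphatidic acid receptor gene (0.996), LAMA4, a laminin chain gene (0.992), HMGN3, which encodes a nucleosome-binding protein (0.989), and FAM50A (0.988). VEZF1 stood at 7.65, 7.47 and 7.55 in control and at 6.99, 6.63 and 6.53 with BMP9. Since the genes were picked for their likeness over these arrays, the array order and the direction they share with GADD45A were fixed by the choice, and their values are a description. VEZF1 (-0.84), LPAR4 (-0.82), HMGN3 (-0.69) and LAMA4 (-0.53) passed, with limma adjusted p between 0.0104 and 0.0303, and FAM50A (-0.39) did not (limma adjusted p = 0.0947).

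**Figure D4:**
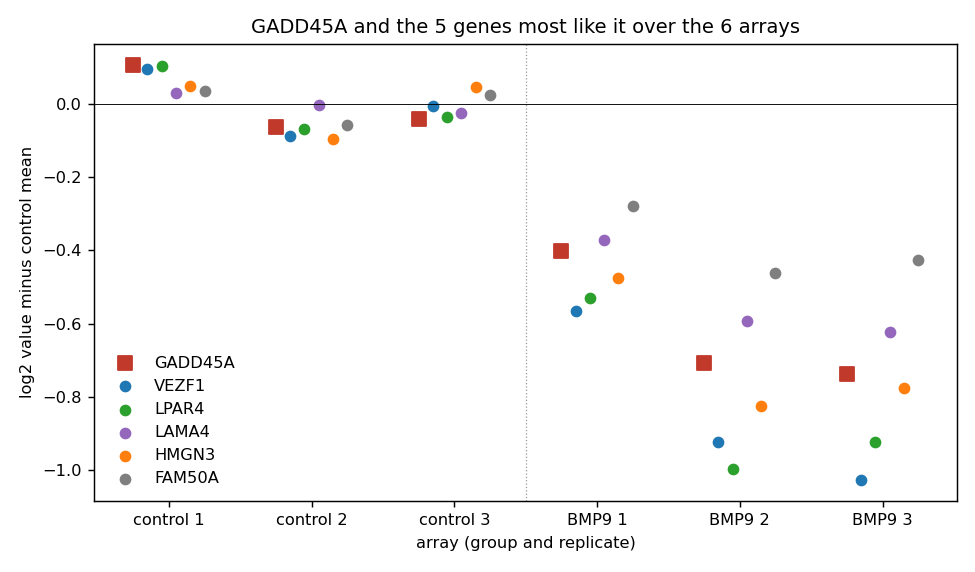
Log2 value minus the gene's control mean (y axis) on each of the 6 arrays (x axis) for GADD45A (squares) and the 5 genes with the highest Pearson's r to it (circles). All 6 genes are lower on every BMP9 array than on any control array, and least so on BMP9 replicate 1.

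Genes around the members in the same pathway were taken from 7 lists with 108 genes, of which 102 were measured. Each gene was read by its brightest probe set alone, so a call in a dimmer probe set of these genes would not be seen. None passed over all probe sets or with 1 probe set per gene in limma, where 0.529% and 0.684% of all genes did, while 18 had an unadjusted p under 0.05, or 17.6% against 12.1% of all genes. Groups did not overlap in 27 of them, or 26.5% against 18.8%, and 54.7% of all genes had a positive difference. The list of G1 cyclins and CDKs holds targets of the inhibitors and also the CDK-activating kinase. Of its 12 measured genes 4 were positive and 8 negative, with a median of -0.068 against 0.014 over all genes. CCND2, a D-type cyclin gene, stood at 7.27, 7.33 and 7.29 in control and at 7.78, 7.51 and 7.59 with BMP9. Its difference of 0.33 separated the groups (limma adjusted p = 0.184). The parts of the CDK-activating kinase CCNH (-0.23) and MNAT1 (-0.24) were lower on every BMP9 array and did not pass either (limma adjusted p 0.345 and 0.372), while CDK7, the kinase of that complex, differed by -0.0013 with overlapping groups.

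Further downstream, the RB proteins and E2F factors (13 measured, 10 positive, median 0.059) had overlapping groups in every gene and no unadjusted p under 0.05. RBL1, an RB relative, differed by 0.15, E2F7 by 0.14 and TFDP1, an E2F partner, by -0.11. Of 16 proliferation genes 14 had a positive difference, with a median of 0.12. The replication helicase gene MCM3 differed by 0.22 (limma adjusted p = 0.382), the mitotic kinase gene AURKA by 0.13 and TOP2A, a topoisomerase gene, by -0.15.

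On the side of p53, 23 genes were measured, 11 with a positive and 12 with a negative difference and a median of -0.0017. XPC, a DNA repair gene, stood at 3.44, 3.58 and 3.12 in control and at 3.69, 3.82 and 3.84 with BMP9, a difference of 0.41 (limma adjusted p = 0.214). The kinase gene PLK2 differed by -0.35 (limma adjusted p = 0.279) and PMAIP1, a pro-apoptotic gene, by 0.31 (limma adjusted p = 0.375). GADD45A, itself a p53 target, was not counted in this list. Its fall was not accompanied by a call in the brightest probe set of any of the 23 genes.

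Among 8 measured GADD45 partners, PCNA differed by 0.30 (limma adjusted p = 0.172), the JNK kinase gene MAP2K4 by 0.20 and MAP3K4 by -0.33 with overlapping groups. PCNA was dim in the probe set used (control 2.06 ± 0.035, BMP9 2.36 ± 0.075, SD, n = 3). Of 15 stress regulators upstream of the GADD45 genes, JUN, an AP-1 subunit gene, stood at 8.54, 8.63 and 8.52 in control and at 8.24, 8.23 and 8.15 with BMP9. This difference of -0.36 (limma adjusted p = 0.106) was the one with the smallest p in the 7 lists. DDIT4, a stress-induced inhibitor of mTOR signalling, differed by -0.43 (limma adjusted p = 0.142) and FOXO1, a transcription factor gene of the arrest and stress response, by 0.33 (limma adjusted p = 0.225), both without overlap.

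Of 16 regulators of CDK inhibitor levels, 11 had a negative difference, with a median of -0.11. SP3, a GC-box factor gene that acts on CDKN1A, stood at 8.95, 8.89 and 8.92 in control and at 8.69, 8.70 and 8.70 with BMP9. Its difference of -0.22 was among the tightest of these genes and did not pass (limma adjusted p = 0.283). MDM2, the ubiquitin ligase of p53, differed by -0.21 and KLF4, a factor that can activate CDKN1A, by 0.21. The negative differences in these 7 lists, the largest of which was -0.43, all turn positive under poly-A scaling, which moves the median of all probe sets to 0.54.

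**Figure D5:**
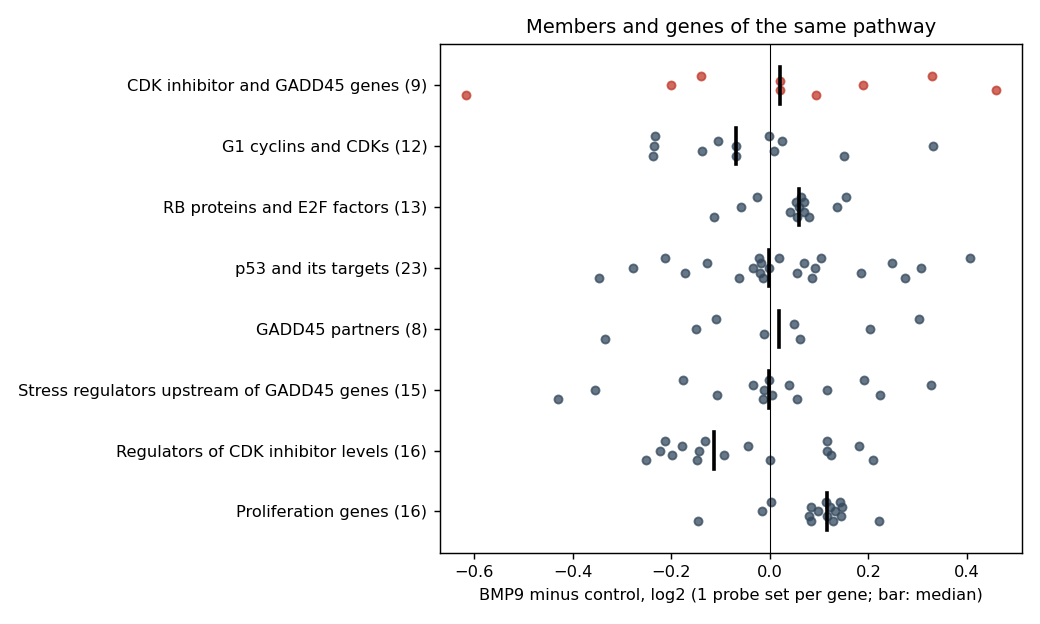
Difference BMP9 minus control (log2, x axis) of the 9 measured members and of the genes of 7 pathway lists, 1 point per gene by its brightest probe set, with the number of genes in brackets and a bar at the median. GADD45A at -0.62 lies below and GADD45G at 0.46 above every gene of the 7 lists.

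As a check of the treatment, the brightest probe set of the BMP target gene SMAD6 stood at 5.80, 6.14 and 5.98 in control and at 9.07, 8.92 and 8.96 with BMP9, a rise of 3.01 (limma adjusted p = 2.32e-07), with no overlap. Of its other probe sets, 1 rose by 2.71 and 1 differed by 0.24 and did not pass (limma adjusted p = 0.432). Of 3 probe sets of ID1, 1 rose (3.21) and the others (0.14 and 0.32) did not pass, and of 3 of ID3, 2 rose (1.63 and 1.14) and the other (0.41) did not pass. The brightest ID1 probe set was the one that differed by 0.14. Reading ID1 by its brightest probe set, as was done for the pathway genes, would thus have missed its rise. Of 13 marker genes of stellate cells and fibroblasts 6 had a mean log2 value of at least 6, and another 6, among them LUM, DCN, LRAT and ACTA2, were below 5. One of the 13, the collagen gene COL3A1, passed and fell by 1.29. The summed level of this list, COL3A1 included, did not overlap between the groups (78.6 to 80.5 in control, 77.6 to 78.0 with BMP9). No sum was taken without COL3A1, and the part of this list in the results was not tested. No hepatocyte, endothelial or cholangiocyte marker (8, 7 and 5 measured) reached 6, and 2 of 7 macrophage and leukocyte markers, CD68 and CD79A, did. None of the markers of these 4 other cell types passed, and their summed levels overlapped between the groups in each list. The 3′ minus 5′ difference of the actin control sets lay between -4.28 and -4.08 in control and between -4.45 and -4.32 with BMP9. That of the GAPDH control sets overlapped between the groups (-1.39 to -1.19 in control, -1.55 to -1.34 with BMP9). The part of these differences in the results was likewise not tested.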

How the data were processed

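The authors deposited log2 expression values, 1 per probe set and array, computed with RMA per the submitters' processing notes; RMA software, version and settings are not given there, and the log base was read from the range of the values. As a method, RMA normalises arrays to a shared distribution, which removes a change common to most transcripts.

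All 49293 probe sets other than 102 array controls entered limma 3.58.1 (lmFit, eBayes) under R 4.3.3 without covariates, as BMP9 minus control. P-values were adjusted by Benjamini-Hochberg over all of them, with 0.05 as threshold, and residual degrees of freedom of 4 were joined by 6.71 from the prior. For pathway and marker genes the brightest probe set paired with that gene alone was used (18132 genes). The fit was tested on simulated data. The number of arrays limits the precision. Group values are means ± SD over 3 arrays.

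The members and the lists were chosen with earlier results of these data known. The rule named all members, the 3 genes with the smallest p of each pathway list, SMAD6, ID1 and ID3, and the 5 genes most like GADD45A. CDK7 and single markers were named outside this rule, after their values were seen. Alternatives were the replicate block, 4 other scalings, a minimum mean of 5, no probe sets with shared probes, single-gene probe sets alone, 2 summaries per gene, a trend with a robust prior, and each array left out.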

Additional observations from a re-analysis of the deposited data

How the results depend on the processing

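The GADD45A difference stayed negative under all 17 alternatives and passed under 11 of them, and the 6 that ended its call are the 5 left-out arrays named above and poly-A scaling. One member passed under every alternative that kept all arrays, apart from the scalings to control sets: 6 members passed with hybridisation scaling and 18 with poly-A scaling, beside 10588 and 45805 of all probe sets. With each array left out in turn, 0 to 1 members and 88 to 137 of all probe sets passed. A minimum mean of 5 gave 449 calls among the 11438 probe sets it left, and a trend with a robust prior gave 429 among all 49293. Among 18132 genes, 1 probe set per gene gave 124 calls and the mean of a gene's probe sets 87. Of the pathway genes 28 passed with hybridisation and 90 with poly-A scaling, and 0 with each array left out.

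Negative differences short of the threshold that turned positive with hybridisation scaling were those of CDKN1B (0.010), CDKN2A (0.18), CDKN2B (0.073, 0.16 and 0.082) and GADD45B (0.17). With poly-A scaling they were 0.33 for CDKN1B, 0.50 for CDKN2A, 0.39, 0.48 and 0.40 for CDKN2B and 0.49 for GADD45B. Each of these scalings adds the same shift to the difference of every probe set, so which signs turned follows from the size of the differences alone.

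Leaving out single arrays changed the sign of small differences, within -0.14 to 0.30 for CDKN1B, -0.029 to 0.070 for CDKN1C, -0.12 to 0.087, -0.022 to 0.23 and -0.074 to 0.25 for CDKN2A, -0.25 to 0.0026 and -0.17 to 0.031 for CDKN2B, -0.027 to 0.043 for CDKN2D and -0.079 to 0.021, -0.0055 to 0.062 and -0.016 to 0.073 for GADD45B.

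With the replicate number as a block, 160 probe sets passed, GADD45A among them (limma adjusted p = 0.0249), and no other member. Deviations of arrays with the same number correlated by -0.0017, 0.034 and -0.023, so the numbers were not taken as pairs, and not every array correlated best with its own number. Signal over background could not be judged, for GADD45A as for the dim probe sets.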
